A study of Homo sapiens with 2 samples.

Results

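This account describes 10 genes read out by, or acting in, the YAP and TEAD arm of the Hippo pathway: the coactivator gene WWTR1 (which encodes TAZ), the DNA-binding factors TEAD1 and TEAD4, the inhibitory kinase LATS2, the inhibitory scaffold AMOTL2, the secreted matrix proteins CCN1 and CCN2, the ankyrin repeat protein ANKRD1 and the surface proteins AXL and NT5E. They were found by gene symbol in the array annotation, which gave 23 probe sets that name a single listed gene, of 41091 probe sets with a single symbol and 19775 genes in all. Each of the 10 genes had at least 1 probe set, and 9 of the 10 reached the signal floor given below on at least 1 array.

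Total RNA came from PLC/PRF/5, an established human hepatocellular carcinoma line, and was hybridised to 2 Affymetrix arrays. The chemoresistant hepatospheres were spheroids of these cells exposed to cisplatin, which crosslinks DNA, and doxorubicin, which blocks topoisomerase II. The differentiated cells had been spheroids to which fetal bovine serum was added and which then attached to the dish, and the labels leave it unsaid whether they had also met the drugs. There was 1 array in each group, so that no difference here could be tested or given an error, and culture form, serum, attachment and possibly drug exposure cannot be told apart.

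In the Hippo pathway the kinases STK3 and STK4 activate LATS1 and LATS2, which phosphorylate the coactivators YAP1 and TAZ and keep them out of the nucleus. Coactivators that escape this bind TEAD factors on DNA and switch on genes for growth, matrix and cytoskeleton, among them LATS2 and AMOTL2, which feed back on the pathway. In cultured cells the pathway is known to respond to serum lipids, cell attachment, density and actin tension, and in liver it restrains organ size and tumour growth. Messenger RNA levels do not show where the coactivators are in the cell or whether they are phosphorylated.

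TEAD factors recognise the letters GGAATG, or CATTCC when read from the opposite strand. RefSeq promoter windows of GRCh38.p14 were matched for 7 of the 10 genes, as 10 windows because AMOTL2, AXL and WWTR1 have more than 1 start. CCN1, TEAD1 and TEAD4 were not matched. In the 250 bases before the start, 4 of these 10 windows held the motif on either strand, against 11.9% of all 35116 windows of that length. The windows below are those with a match, together with that of NT5E, which was 1 of the 2 members far higher in hepatospheres and had none. They are written 5′ to 3′ on the gene's strand, ending at the base before the start, and capitals mark each match.
CCN2, chr6:131951373-131951622, minus strand: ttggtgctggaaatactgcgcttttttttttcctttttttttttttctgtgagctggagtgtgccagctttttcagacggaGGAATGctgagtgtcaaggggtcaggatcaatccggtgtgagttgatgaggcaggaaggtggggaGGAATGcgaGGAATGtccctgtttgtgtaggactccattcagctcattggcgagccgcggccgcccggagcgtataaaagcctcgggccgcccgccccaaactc
ANKRD1, chr10:90921088-90921337, minus strand: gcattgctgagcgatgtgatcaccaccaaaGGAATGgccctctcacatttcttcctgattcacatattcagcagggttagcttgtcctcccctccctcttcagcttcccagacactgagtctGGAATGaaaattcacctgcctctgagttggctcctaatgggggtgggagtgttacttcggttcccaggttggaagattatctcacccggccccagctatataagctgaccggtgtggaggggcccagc
AMOTL2, second start, chr3:134374448-134374697, minus strand: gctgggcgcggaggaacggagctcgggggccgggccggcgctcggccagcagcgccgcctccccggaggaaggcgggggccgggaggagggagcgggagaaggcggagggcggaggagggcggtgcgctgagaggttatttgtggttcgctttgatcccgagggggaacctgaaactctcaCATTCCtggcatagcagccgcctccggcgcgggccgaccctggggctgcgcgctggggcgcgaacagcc
AXL, second start, chr19:41226505-41226754, plus strand: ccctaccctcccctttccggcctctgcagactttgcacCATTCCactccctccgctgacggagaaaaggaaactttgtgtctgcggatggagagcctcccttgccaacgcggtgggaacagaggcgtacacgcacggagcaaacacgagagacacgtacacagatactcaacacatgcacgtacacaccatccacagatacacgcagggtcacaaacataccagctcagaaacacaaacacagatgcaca
NT5E, chr6:85449833-85450082, plus strand: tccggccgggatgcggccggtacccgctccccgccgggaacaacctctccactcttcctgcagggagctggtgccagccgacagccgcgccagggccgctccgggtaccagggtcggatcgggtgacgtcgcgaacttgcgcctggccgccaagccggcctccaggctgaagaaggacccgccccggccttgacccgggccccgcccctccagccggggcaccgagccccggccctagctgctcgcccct

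CCN2 had 3 matches, all in the forward direction, beginning 169, 104 and 95 bases before its start. Only 29 of all windows held 3 or more (0.0826%). ANKRD1 had 2 forward matches, beginning 220 and 128 bases before the start, and 0.940% of all windows held 2 or more. AMOTL2 had 1 reverse match at 69 bases before its second start, and AXL 1 reverse match at 212 bases before its second start. In LATS2 no match lay before the start but 1 lay within the 50 bases after it. Among the genes shown, CCN2 lay within 2-fold and ANKRD1 was below the floor on both arrays. AXL and AMOTL2, with 1 match each, were 11.9-fold higher and 3.46-fold lower. NT5E, without a match in this window, was 10.96-fold higher. Any link between matches and differences was not tested. A match is a run of letters and no evidence of binding, and more distant elements were not examined.

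**Figure D1:**
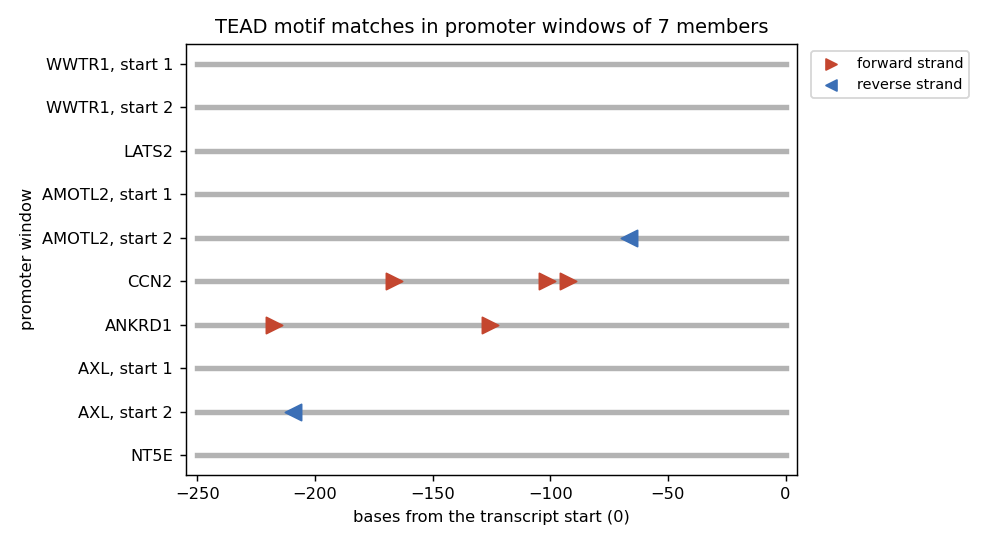
Positions of the TEAD motif in the 250 bases before the transcript start (x axis, bases, with the start at 0) in the 10 promoter windows of 7 members (y axis). Red triangles are forward matches and blue triangles reverse ones. CCN2 holds 3 matches, ANKRD1 holds 2, and the second starts of AMOTL2 and AXL hold 1 each.

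The values are linear MAS5 signals, in which each array is scaled as a whole. A signal below the floor of 84.4, the median of all probe sets on the hepatosphere array, was replaced by it ahead of the log2 step, and a gene below it on 1 array has only a bound and a gene below it on both has no fold. Every difference is log2 signal in hepatospheres minus log2 signal in differentiated cells, read on the brightest probe set of a gene and set beside the other probe sets. Where a pair of values is given, that of differentiated cells comes first. The bulk of genes was centred at 0.05 on this scale over the 12757 genes that reached the floor. The 24 probe sets for poly(A) control RNA were 2.04-fold higher (median) on the hepatosphere array. The ACTB 3' to 5' signal ratio was 1.48 in differentiated cells and 2.64 in hepatospheres, while that of GAPDH was nearly equal, at 0.99 and 1.04. The part of these control values in the results was not tested.

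The members split. AXL and NT5E were far higher in hepatospheres, AMOTL2 and CCN1 were lower by at least 2-fold, TEAD1 and TEAD4 came just short of 2-fold lower, at -0.98 and -0.97, and CCN2, WWTR1 and LATS2 differed little on their brightest probe sets. Of the 9 members measured, 2 were at least 2-fold higher, where 12.5% of all 12757 genes that reached the floor were. Another 2 were at least 2-fold lower, where 8.83% of those genes were. Together these are 4 of 9 members apart, against 21.4% of those genes apart in either direction. The remaining 5 lay inside 2-fold. Of all 9, 7 had a negative difference, or 5 with the mean over probe sets, and the median was -0.37. The share of all genes below 0 was not counted. Genes of like brightness also leaned negative. The median difference of the 501 genes nearest each member in mean signal ran from -0.20 (CCN2) to -0.01 (WWTR1). CCN2, LATS2 and WWTR1 lay between the 25th and 75th percentiles of their neighbours. Scaling to the poly(A) controls lowers the difference by 1.03 for genes above the floor on both arrays before and after it, as all 9 members were. CCN2, LATS2, WWTR1, TEAD1 and TEAD4 then also passed 2-fold lower, with 7 members lower and 2 higher. Of all 12392 genes measured under that scaling, 5763 were at least 2-fold lower and 399 higher. The share of higher genes among all those 2-fold apart was then 6.48%, against 58.7% with the deposited scaling and 38.2% with median centring. Directions with the deposited scaling are relative to the bulk of genes, and those with poly(A) scaling to the control RNA. In bulk RNA a difference in the make-up of the cells and a difference in RNA per cell cannot be told apart. By probe set, 20 of 23 reached the floor, 6 of them at least 2-fold higher (11.6% of the probe sets with a single symbol that reached the floor) and 4 at least 2-fold lower (9.59%). The higher ones were all 4 of NT5E, 202686_s_at of AXL and 202134_s_at of WWTR1. The lower ones were those of CCN1 and AMOTL2 and 41037_at of TEAD4. Probe sets of the same gene are repeated readings, so these counts add no further genes beyond WWTR1 and TEAD4.

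**Figure D2:**
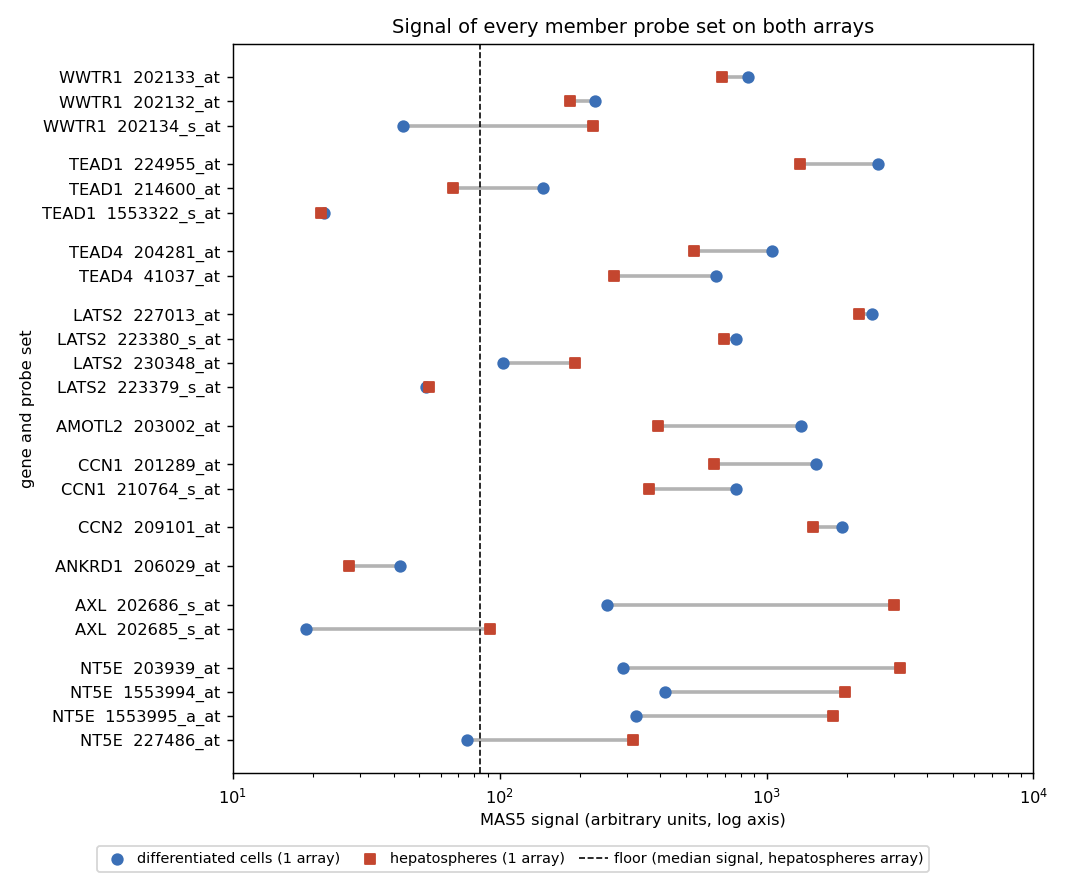
MAS5 signal (x axis, log scale) of the 23 probe sets of the 10 genes (y axis), with differentiated cells as blue circles, hepatospheres as red squares and the floor of 84.4 as a dashed line; 1 array each, so there are no error bars. All 4 NT5E and both AXL probe sets run to the right, all probe sets of CCN1, TEAD4 and AMOTL2 run to the left, and those of WWTR1 and LATS2 point both ways.

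Coactivator and DNA-binding genes come first. WWTR1 encodes TAZ, the paralogue of YAP1 that carries no DNA-binding domain and acts through TEAD factors. Its brightest probe set, 202133_at, gave 851 for differentiated cells against 678 for hepatospheres, a difference of -0.33. A dimmer one, 202132_at, read 227 and 183, a difference of -0.31. The dimmest, 202134_s_at, pointed the other way: it read 43.5, below the floor, in differentiated cells and 223 in hepatospheres, at least 2.64-fold higher. The direction of WWTR1 therefore depended on the probe set, and its mean over probe sets was 0.25. YAP1 itself, which is not among the 10 genes, was lower on all 3 of its probe sets. Its brightest read 3507 and 2074 (-0.76), and the others differed by -0.96 and -1.002.

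TEAD1, the broadly expressed member of its family, gave 2621 for differentiated cells against 1328 for hepatospheres on its brightest probe set, 224955_at, 1.97-fold lower. On 214600_at it read 145 and 66.5, the latter below the floor, which makes it at least 1.71-fold lower. The remaining probe set, 1553322_s_at, read 22.0 and 21.5 and gives no fold. TEAD4, a family member required for trophectoderm in the embryo and often high in carcinomas, read 1048 and 535 on 204281_at, 1.96-fold lower. On 41037_at it read 644 and 268, a 2.41-fold lower signal. The hepatosphere array was the lower one for TEAD1 and TEAD4 on every probe set that reached the floor. Among all genes, 1175 stood at least as low as TEAD1 and 1204 at least as low as TEAD4, which is 9.21% and 9.44% of those measured, so differences of this size were common between these arrays.

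The other TEAD genes gave smaller differences with the deposited scaling. TEAD2 read 512 and 507 (-0.01), and TEAD3 read 347 and 513 (0.56, and -0.47 when scaled to the poly(A) controls). Of the VGLL genes, whose products compete with the coactivators for TEAD factors, VGLL4 read 1068 and 1117 (0.06), while VGLL1, VGLL2 and VGLL3 were below the floor on both arrays, at no more than 39.99 in hepatospheres. Over the 7 genes measured of a list of 10 coactivators, TEAD factors and competitors, 0 were at least 2-fold apart, where 21.4% of all genes measured were, and the median was -0.33. Under poly(A) scaling 5 of the 7 were at least 2-fold lower, as were 5763 of all 12392 genes measured. Median centring, which moves genes above the floor on both arrays by -0.25 and puts the median of all genes measured at -0.19, placed TEAD1, TEAD4 and YAP1 past 2-fold, at -1.23, -1.22 and -1.01.

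The inhibitory members differed from each other. LATS2, the kinase that phosphorylates YAP1 and TAZ and is itself induced by them, read 2473 in differentiated cells and 2219 in hepatospheres on 227013_at, a difference of -0.16. On 223380_s_at it read 765 and 694 (-0.14). Another probe set, 230348_at, was higher in hepatospheres, at 192 against 103 (0.90), and 223379_s_at lay below the floor at 52.9 and 54.4. The 2 brighter probe sets thus put LATS2 close to 0, and the spread of 1.05 over the 3 above the floor stands beside a median spread of 0.52 over the 5198 genes with more than 1 such probe set, whatever their number. LATS1 read 557 and 483 (-0.21).

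AMOTL2, an angiomotin family scaffold that binds YAP1 and holds it at junctions and actin, had a single probe set, 203002_at. Its signal was 1348 in differentiated cells against 390 in hepatospheres, 3.46-fold lower (-1.79). Only 201 genes, 1.58% of those measured, stood at least as low. Of the 501 genes nearest to AMOTL2 in mean signal, itself included, the 25th and 75th percentiles of the difference were -0.56 and 0.49. Its relative AMOTL1 was lower as well, at 502 and 94.4 (5.32-fold), although the hepatosphere value was close to the floor. A dimmer AMOTL1 probe set read 101 and 22.9, below the floor, at least 1.20-fold lower. The founding member AMOT stayed under the floor on either array, at 20.03 and 21.5.

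Among the secreted targets, CCN1 (CYR61), a matricellular protein that binds integrins and is induced early by serum, gave 1531 on the differentiated array against 636 on the hepatosphere array with 201289_at, 2.41-fold lower. Its other probe set, 210764_s_at, read 767 and 364, which is 2.11-fold lower, so both agreed within 0.19 on the log2 scale. CCN2 (CTGF), the connective tissue growth factor and the target most often used to report YAP and TEAD activity, read 1921 and 1489 on its single probe set, 209101_at, a difference of -0.37. Of all genes measured, 29.3% stood at least as low as CCN2 and 5.10% at least as low as CCN1. Both were bright on both arrays, so the floor does not enter these values. Of the other CCN genes, CCN6 read 179 and 114 (-0.66), and CCN3, CCN4 and CCN5 were below the floor on both arrays.

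ANKRD1, a nuclear ankyrin repeat protein of heart muscle and another common YAP reporter, read 42.2 in differentiated cells and 27.3 in hepatospheres on its single probe set, 206029_at. Both values lie below the floor, and no fold is given. Its muscle relatives ANKRD2 and ANKRD23 were below the floor on both arrays too, the brighter of them at 81.4 in hepatospheres.

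The surface proteins gave the 2 largest differences of the 10 genes. AXL, a receptor tyrosine kinase for the ligand GAS6 that is linked to invasion and drug tolerance in carcinomas, read 253 in differentiated cells and 3001 in hepatospheres on 202686_s_at, 11.9-fold higher. Its other probe set, 202685_s_at, read 18.9 and 91.8. It was dim on both arrays, below the floor on one and little above it on the other, which gives a bound of at least 1.09-fold. Only 67 genes, AXL among them, stood at least as high, which is 0.525% of those measured. Both AXL probe sets carry names that mark sequence shared between transcripts, so no value is left for AXL when such probe sets are dropped, and the mean over both was 1.85 against 3.57.

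NT5E (CD73), the surface enzyme that turns AMP into adenosine, was higher in hepatospheres on all 4 of its probe sets. On the brightest, 203939_at, it read 288 and 3161, 10.96-fold higher. On 1553994_at it read 417 and 1972, 4.73-fold higher, and on 1553995_a_at it read 325 and 1770, 5.45-fold higher. The dimmest, 227486_at, read 75.1, below the floor, and 316, at least 3.75-fold higher. The arrays were thus separated in the same direction by every probe set, with sizes that ranged by 1.21 on the log2 scale over the 3 above the floor. In all, 72 genes stood at least as high as NT5E, and 2.98% of all genes measured were at least 4-fold higher.

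AXL and NT5E are also abundant in mesenchymal cells. Of 8 fibroblast and stellate cell markers, 7 were below the floor in differentiated cells and 3 in hepatospheres, and their summed signal was 514 and 4224. Most of the latter was LUM on its brightest probe set, 201744_s_at, at 1.14 in differentiated cells and 2677 in hepatospheres. The other LUM probe set, 229554_at, never reached the floor and read 17.3 and 77.2. COL3A1 read 42.6 and 679. COL1A1, the only marker to reach the floor in differentiated cells, read 290 and 471. Smaller signals came from DCN (76.2 and 139) and THY1 (78.5 and 108). The markers COL1A2, PDGFRB and ACTA2 were below the floor on both arrays, at no more than 66.9. Of 5 endothelial markers 4 were below the floor on both arrays (PECAM1 read 3388 and 3787), and of 4 immune markers 3 were (LYZ read 6364 and 10455). All 9 hepatoma markers found were above it on both arrays, but their levels differed. TTR, APOH and ALB were 5.62-fold, 3.09-fold and 2.71-fold higher in hepatospheres, AFP was 5.66-fold lower, and the other 5 lay within 2-fold. Of all genes measured, 12.5% were at least 2-fold higher and 8.83% lower. The part of other cells in the AXL and NT5E values was not tested.

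**Figure D3:**
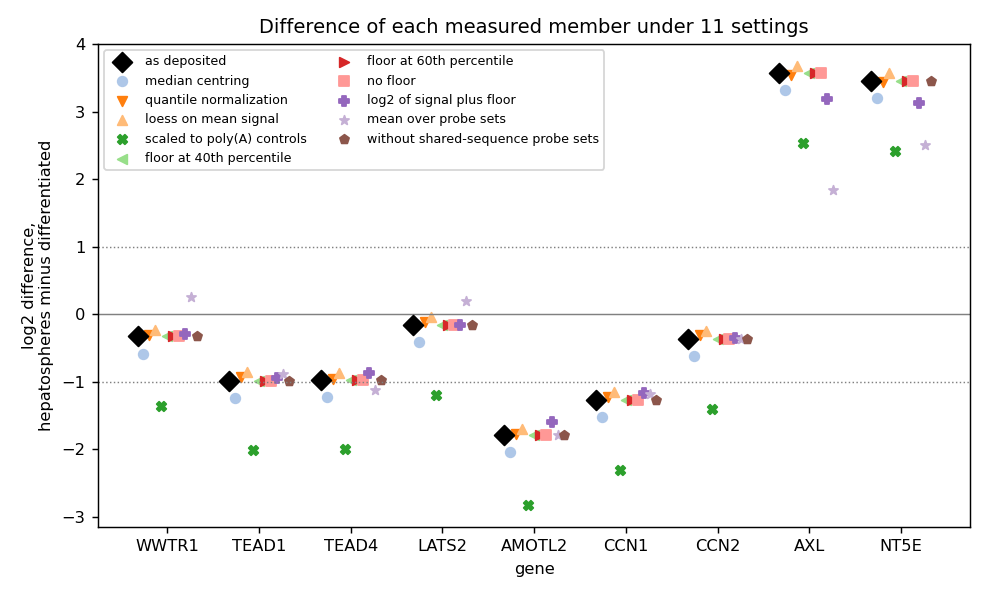
Log2 difference (y axis, hepatospheres minus differentiated cells) of the 9 measured genes (x axis) with the deposited scaling (black diamonds) and under 10 alternatives; dotted lines mark 2-fold and there are no replicates. AXL and NT5E stay above the upper line under every alternative that gives them a value, AMOTL2 and CCN1 below the lower one, and WWTR1 and LATS2 cross 0 with the mean over probe sets.

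The other genes of the pathway were taken from lists. Of the 15 Hippo kinases and adaptors measured, LATS2 included, 0 were at least 2-fold higher, 14 were within 2-fold and 1 was lower, with a median of -0.14. The lower one was MAP4K4, a kinase upstream of LATS, at 723 and 361 (2.01-fold). All 5 of its probe sets were lower. Among 30 measured upstream regulators and junction scaffolds, AMOTL2 included, 2 were higher and 3 lower (median -0.12). Beside AMOTL1 and AMOTL2 the lower one was WWC1 (KIBRA), a scaffold that promotes LATS activation, at 1770 and 704 (2.52-fold). It was lower on all 7 probe sets that reached the floor. The higher ones were RASSF4, at 474 and 1446 (3.05-fold), and RASSF6, at 165 and 603 (3.66-fold), both of the Ras association family whose members bind the STK3 and STK4 kinases. Of all genes measured, 21.4% were 2-fold apart. Under poly(A) scaling 9 of the kinases and adaptors and 18 of the upstream genes were lower. So were 5763 of all 12392 genes measured.

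A published signature of 22 YAP and TAZ targets holds 7 of the members and gives the wider set of targets. Of its 17 measured genes, 5 were higher and 4 lower by at least 2-fold, where 12.5% and 8.83% of all genes measured were, and the median was -0.10 against 0.05 over all genes. Outside the members, 11 were measured, of which 3 were higher and 2 lower. TGFB2, a TGF-beta ligand, read 111 and 431 (3.88-fold higher). IGFBP3, which binds insulin-like growth factors, read 6598 and 20016 (3.03-fold higher), and the stress gene GADD45A read 3031 and 8711 (2.87-fold higher). MYOF, a membrane repair protein, read 734 and 209 (3.51-fold lower), and the transcription factor FOXF2 read 386 and 37.4, which makes it at least 4.57-fold lower. GADD45A is also a p53 target and IGFBP3 responds to many signals, and neither is read by YAP and TEAD alone. With the deposited scaling the signature showed no common direction, whereas poly(A) scaling left 2 of its genes higher and 11 lower. Of all 12392 genes measured under poly(A) scaling, 399 were higher and 5763 lower.

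Targets of SRF and its actin-regulated partners, which share CCN1, CCN2 and ANKRD1 with YAP in many cells, formed a further list. Of 13 measured, 1 was higher, where 12.5% of all genes measured were, and 0 were lower, where 8.83% were. The other 12 lay within 2-fold. Their list had a median of 0.21, against 0.05 over all genes. The higher one was FHL2, a LIM protein that binds actin regulators and transcription factors, at 7.26 and 975, at least 11.6-fold higher on its single probe set. Around the surface proteins, the relatives of AXL and the ligands of this receptor family gave smaller differences than AXL. TYRO3 read 370 and 764 (2.07-fold higher), MERTK 501 and 935 (0.90), the ligand GAS6 229 and 408 (0.83), and the ligand PROS1 2236 and 4881 (2.18-fold higher). With the deposited scaling all 5 genes of this receptor and ligand group lay above 0 on their brightest probe sets, and 3 of the 5 were at least 2-fold higher, where 12.5% of all genes measured were. Poly(A) scaling put MERTK and GAS6 at -0.13 and -0.20 and TYRO3 and PROS1 at 0.017 and 0.096, which leaves AXL alone past 2-fold. Under median centring TYRO3 and PROS1 fell short of 2-fold, at 0.79 and 0.87. Of 9 measured genes of extracellular adenosine handling, 2 were higher and 0 lower (median 0.52), where 12.5% and 8.83% of all genes measured were. Beside NT5E the other was ENPP1, which splits ATP and so supplies AMP, at 688 and 1735 (2.52-fold higher).

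**Figure D4:**
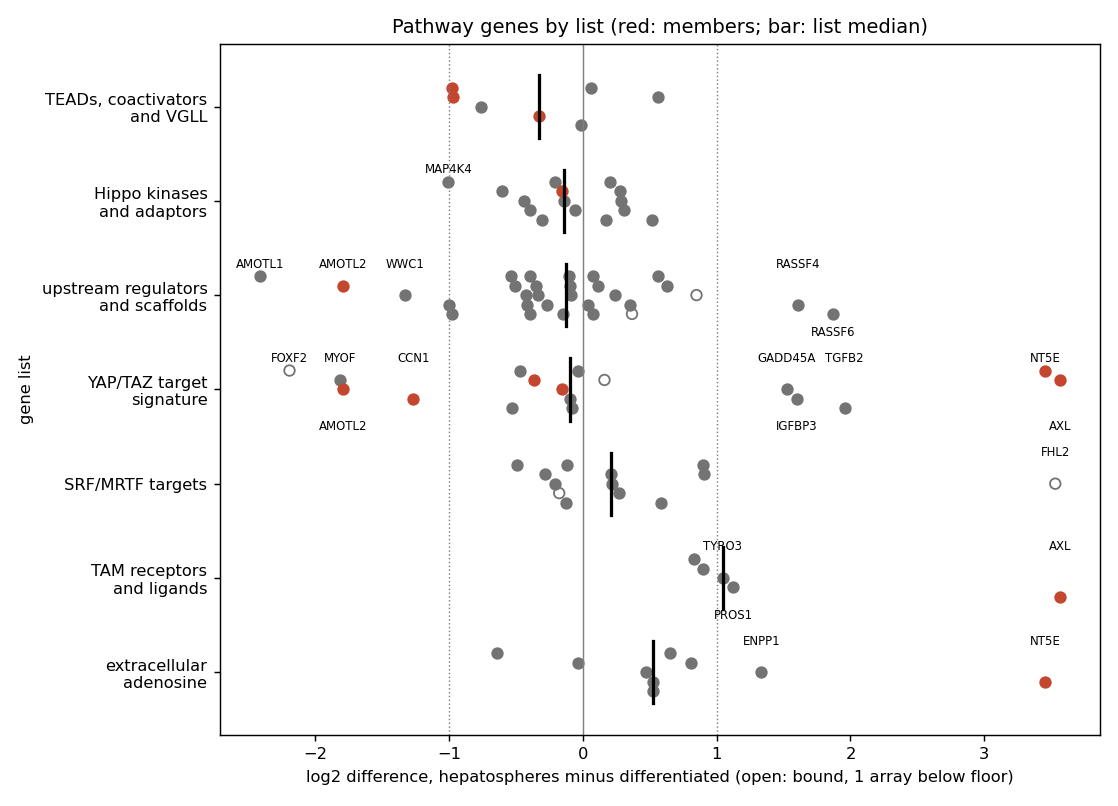
Log2 difference (x axis) of the measured genes of 7 lists (y axis), with the described genes in red, other genes in grey, bounds as open circles, the median of each list as a black bar and 2-fold as dotted lines; named genes are at least 2-fold apart. AXL and NT5E at 3.57 and 3.45 lie to the right of the other targets of the signature, whose median with them is -0.10.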

How the data were processed

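Gene expression was measured on 2 arrays, 1 per group, with groups taken from the source names. The authors deposited linear intensity values made with MAS5, per the submitters' processing notes; the version and the scaling target are not given. MAS5 subtracts mismatch brightness and scales arrays globally, so that weak signals are noisy. Names came from GEO's annotation of the array; 1801 with several symbols and 11721 unnamed ones were left out, as were 62 control probe sets, and 0 symbols needed updating from RefSeq (GRCh38.p14). Each gene was read on its brightest probe set by mean log2 signal over both arrays. Genes at least 2-fold apart were counted, with no test, since there is 1 array per group. Precision is limited by the number of arrays.

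The genes and lists were chosen with earlier results of these data known. The text names every probe set of the 10 genes, at most 4 genes per list and direction that were at least 2-fold apart, and the YAP1, TEAD, VGLL, CCN, angiomotin and AXL family genes. LATS1, ANKRD2, ANKRD23 and the marker genes were named in addition, after their values were seen. With 2 arrays there is no pattern across samples, so no gene was sought for its likeness. Some listed genes were not analysed here. Alternatives were median centring, quantile normalization, loess (span 0.3), scaling to poly(A) controls, no floor, a floor at the 40th or the 60th percentile, the floor added to signals before log2, averaging a gene's probe sets, and leaving out probe sets whose names end in _s_at, _x_at or _a_at. The counting step was checked on simulated data with known changes. These were planted only in genes well above the floor, with less spread than in these arrays. The check thus covers the code and not the certainty of the counts given here. The tools were pandas 2.3.3, numpy 2.4.6, statsmodels 0.14.6 and matplotlib 3.10.9 under Python 3.11.15.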

Additional observations from a re-analysis of the deposited data

How the results depend on the processing

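Of 89 values of the 9 measured members under the 10 alternatives, 81 stayed on their side of 2-fold and 8 passed it that had not before. None went from beyond 2-fold to within it. Many of the 81 could not move. The other floors and no floor repeat the main value of all 9 members, whose brightest probe sets lie above each floor. Leaving out shared-sequence probe sets repeats it for every member but AXL, which has no value there. AXL ranged from 1.85 (mean over probe sets) to 3.68 (loess), NT5E from 2.42 (poly(A) scaling) to 3.57 (loess), AMOTL2 from -2.82 to -1.59 and CCN1 from -2.30 to -1.15. LATS2 and WWTR1 turned to 0.20 and 0.25 with the mean over probe sets.

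Scaling mattered most. Scaled to the poly(A) controls, the median of all genes stood at -0.93. At least 2-fold higher were 399 of 12392 genes and lower 5763, instead of 1599 and 1127 of 12757. The share of higher genes among those 2-fold apart was 6.48% instead of 58.7%. Members at least 2-fold lower then numbered 7, with 2 still higher. Lower counts were 9 for Hippo kinases, 18 for upstream regulators (0 higher), 5 for TEAD factors and coactivators, 11 for the target signature (2 higher), 5 for SRF targets and 2 for adenosine genes (1 higher). Median centring gave 1909 of 12992 genes lower and 1178 higher, so that higher genes were 38.2% of those 2-fold apart. It also put 4 members, 5 upstream regulators and 3 TEAD factors and coactivators at least 2-fold lower. Hippo kinases had 0 lower with loess and with log2 of signal plus floor, where MAP4K4 stood at -0.94 and -0.86. With the mean over probe sets, upstream regulators had 1 higher (RASSF6 at 0.98) and TEAD factors 1 lower (TEAD4 at -1.12). Without shared-sequence probe sets, 1 member was higher because AXL has no other probe set, the signature had 3 higher, SRF targets had 1 lower, and WWC1 stood at -0.81. The cause of the scaling difference was not tested. Signals near the floor of 84.4 limit AMOTL1, FOXF2 and FHL2. No paired analysis was possible because each group has 1 array.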
